A study of Homo sapiens with 4 samples.

Results

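The genes described here encode the pyruvate dehydrogenase complex, its 4 kinases and its 2 phosphatases. The members were chosen by gene symbol: PDHA1, PDHB, DLAT and PDHX for the complex, PDK1, PDK2, PDK3 and PDK4 for the kinases, and PDP1 and PDP2 for the phosphatases. All 10 were found, each on 1 row, among 18382 symbols in the deposited RPKM values (reads per kilobase of transcript, scaled to the depth of the library). Libraries were made with the Illumina TruSeq RNA kit from Huh1 and Huh7, established human hepatocellular carcinoma lines, each transfected with a negative control siRNA or with an siRNA against ODC1, the gene of ornithine decarboxylase in polyamine synthesis. The study holds 4 libraries, 1 per group. The groups are therefore Huh1 with control siRNA, Huh1 with ODC1 siRNA, Huh7 with control siRNA and Huh7 with ODC1 siRNA, and all cells were transfected. The dose, the time after transfection and the siRNA sequence are not stated in the labels. A comparison of the lines is a comparison of 2 established tumour lines, not of kinds of tumour.

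The pyruvate dehydrogenase complex sits in the mitochondrial matrix and turns pyruvate into acetyl-CoA, the step that commits glycolytic carbon to the citric acid cycle or to lipid synthesis. PDHA1 and PDHB form the E1 enzyme, DLAT is the E2 acetyltransferase core, and PDHX anchors the E3 enzyme dihydrolipoamide dehydrogenase (DLD) to the core. The kinases phosphorylate serines of PDHA1 and switch the complex off, and the phosphatases remove the phosphate and switch it on again. PDK1 is a known target of the hypoxia-inducible factor HIF-1, and PDK4 is known for its induction by fasting, fatty acids and PPAR receptors in liver. Transcript levels do not report the phosphorylation state or the activity of the complex.

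Depth recovered from the steps between low RPKM values lay between 10215332 and 13384836 reads per library. ODC1 stood at 103 RPKM in Huh1 with control siRNA and 25.01 with ODC1 siRNA, and at 167 and 7.501 RPKM in Huh7, which is the direction of the labels. All 10 hepatocyte markers listed were expressed at 1 RPKM or more in some library. Their summed level was between 4605 and 5322 RPKM in Huh1 and between 2733 and 3457 RPKM in Huh7, with ALB the highest at 3447 RPKM. Of 4 endothelial markers found, CDH5 and TEK were at 0 in all libraries and none reached 1 RPKM. Of 5 blood cell markers, HBB was at 0 in all libraries and CD68 alone reached 1 RPKM, so that the sum was 23.58 and 24.99 RPKM in Huh1 and 3.84 and 6.20 RPKM in Huh7. The 6 fibroblast markers summed to 12.1 and 15.7 RPKM in Huh1 and to 284 and 370 RPKM in Huh7, with LUM and COL1A1 the highest. Their part in the differences between the lines below was not tested.

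PDK1, PDK3 and PDK4 are the kinase genes that the results below turn on, and short stretches of 30 bases before their RefSeq transcription starts are shown (GRCh38.p14, 5′ to 3′ on the strand of the gene). They were picked for those results. Capitals mark ACGTG or GCGTG on either strand, the letters at the core of hypoxia response elements.
PDK1, chr2:172556060-172556089, plus strand: ccctgctgcccgcCACGTccctCACGTacc
PDK3, chrX:24465172-24465201, plus strand: gcgcgcgcggccGCGTGcccctcgcgctcc
PDK3, chrX:24465213-24465242, plus strand: cgcgcgccgcgtACGTGcagcaaccgactc
PDK4, chr7:95596517-95596546, minus strand: ataaaacctcgggcggcggcggctggtggg
The PDK1 stretch holds 2 ACGTG words, read on the opposite strand, and ends at the base before the start. The first PDK3 stretch holds GCGTG and the second ACGTG. The PDK4 stretch, which also ends at the base before the start, holds neither, nor does the rest of its window. PDK1 has a further RefSeq start upstream, whose window holds neither word. In GENCODE, the PDK1 transcript of the deposited values starts at 172556051, so the PDK1 stretch lies after that start. The PDK3 transcript of the deposited values starts at 24465456 in GENCODE, 170 bases from the RefSeq start used. The second PDK3 stretch spans 24465221, where the PDK3 gene starts in GENCODE. The stretches thus lie before the RefSeq starts used, but not all lie before the GENCODE starts. Over windows of 300 bases (250 before to 50 after the start), ACGTG was found on either strand in 21.4% of 35116 RefSeq promoters, GCGTG in 36.5% and at least 1 of them in 48.4%. Of the 9 members with a promoter in the table, 8 held at least 1 of the words in at least 1 of their windows. PDK2, PDHA1 and PDHB, whose stretches are not shown, were among the 8. Counted by window, as the share over all promoters is, 8 of their 13 windows held one. A match describes letters and not a bound site, and the lack of one says nothing of the factor.

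In Huh1 the subunit genes of the complex were the most abundant members, while in Huh7 with control siRNA the kinase gene PDK1 lay above DLAT and PDHX. Among the subunits PDHA1 differed most between the lines. PDHA1, the E1 alpha subunit that carries the regulatory serines (chromosome X, 19343893 to 19361705, plus strand, GRCh38), stood at 29.9 RPKM in Huh1 with control siRNA, 28.7 in Huh1 with ODC1 siRNA, 76.3 in Huh7 with control siRNA and 74.0 in Huh7 with ODC1 siRNA. Both Huh7 libraries lay above both Huh1 libraries, and within a line the values were close. In bulk RNA, fewer cells with a transcript and less of it per cell cannot be told apart. PDHB, the E1 beta subunit (chromosome 3, 58427630 to 58433857, minus strand), was at 55.2, 51.5, 62.8 and 58.7 RPKM in the same order of libraries. The order of the 2 E1 subunits thus turned between the lines. The ratio of PDHA1 to PDHB was 0.541 and 0.557 in Huh1 and 1.21 and 1.26 in Huh7. An exon of MAP3K15 overlaps PDHA1 on the opposite strand, with 2.18 and 2.50 RPKM in Huh1 and 7.70 and 6.85 RPKM in Huh7. Whether counting used strand is not given in the sources used here. Without strand, reads of such a partner cannot be told apart from those of the gene. PDHA1 also has a processed copy, PDHA1P1 on chromosome 3, that could share reads.

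DLAT, the E2 acetyltransferase (chromosome 11, 112024814 to 112064390, plus strand), was at 29.5, 27.1, 33.5 and 27.0 RPKM. An exon of PIH1D2 overlaps DLAT on the opposite strand (2.28 to 4.16 RPKM). The lines overlapped for DLAT, since Huh7 with ODC1 siRNA lay below both Huh1 libraries. PDHX, the E3-binding protein (chromosome 11, 34915829 to 35020591, plus strand), was at 14.0 and 11.8 RPKM in Huh1, against 22.8 and 24.7 in Huh7. It was the lowest of the 4 subunit genes in every library and was higher in both Huh7 libraries. APIP has exons that overlap those of PDHX on the opposite strand, and its own values were 12.5, 15.2, 24.1 and 27.5 RPKM, so its reads could be part of the PDHX level. DLD, the E3 enzyme shared with other 2-oxoacid dehydrogenases, was at 58.6 and 59.2 RPKM in Huh1, against 40.1 and 39.8 in Huh7. An exon of LAMB1, at 86.5 to 112 RPKM, overlaps DLD on the opposite strand, so its reads could be part of the DLD level. The values listed for DLD and PDHA1 differed between the lines in opposite directions.

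**Figure D1:**
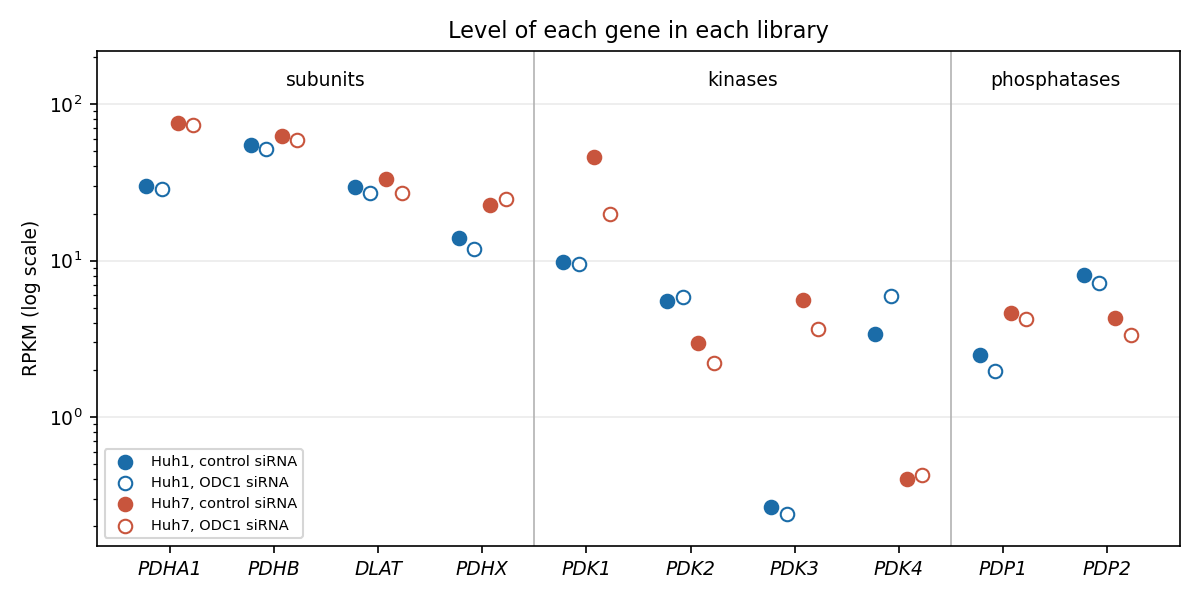
RPKM of each of the 10 genes on a log scale, with 1 point for each of the 4 libraries (filled, control siRNA; open, ODC1 siRNA). PDHA1, PDHB, PDHX, PDK1, PDK3 and PDP1 lie higher in both Huh7 libraries, PDK2, PDK4 and PDP2 lie higher in both Huh1 libraries, and the Huh7 points of PDK1 lie further apart than those of the other 9 genes (45.8 and 19.8 RPKM).

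The kinase genes had a different make-up in each line. PDK1 (chromosome 2, 172555373 to 172608669, plus strand) was at 9.80 and 9.50 RPKM in Huh1 with control and ODC1 siRNA, and at 45.8 and 19.8 RPKM in Huh7. It was the most abundant kinase gene in all 4 libraries. PDK2, a widely expressed kinase with high affinity for the complex (chromosome 17, 50094737 to 50112152, plus strand), was at 5.51, 5.87, 2.96 and 2.21 RPKM, higher in both Huh1 libraries. These PDK2 values correspond to 196, 175, 96 and 60 whole reads on a transcript of 2657 bases. The opposite-strand neighbour SAMD14, whose exons overlap PDK2, was at most at 0.132 RPKM.

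PDK3 and PDK4 had opposite patterns, each low in 1 of the lines. PDK3, a kinase little inhibited by pyruvate (chromosome X, 24465221 to 24541862, plus strand), was at 0.266 and 0.241 RPKM in Huh1, against 5.59 and 3.62 in Huh7. The Huh1 values rest on about 7 and 5 reads. PDK4 (chromosome 7, 95583499 to 95596491, minus strand) was at 3.41 and 5.95 RPKM in Huh1, against 0.399 and 0.423 in Huh7, where it rests on about 17 and 15 reads. With control siRNA, PDK3 was 21.0-fold higher in Huh7 (95% interval 9.69 to 52.1) and PDK4 was 8.56-fold higher in Huh1 (95% interval 5.29 to 15.4). These exact binomial intervals, like all below, cover counting error only. No annotated exon overlaps those of PDK3 or PDK4, whereas PDK1 and PDHB each overlap an exon of an antisense RNA gene on the opposite strand, for which no value was used here.

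Summed over the 4 kinases, the level was 19.0 RPKM in Huh1 with control siRNA, 21.6 in Huh1 with ODC1 siRNA, 54.8 in Huh7 with control siRNA and 26.0 in Huh7 with ODC1 siRNA. PDK1 made up 51.6% and 44.1% of this sum in Huh1 and 83.7% and 75.9% in Huh7. PDK2 made up 29.03% and 27.2% in Huh1 and 5.407% and 8.495% in Huh7. PDK4 made up 18.0% and 27.6% in Huh1 but 0.728% and 1.63% in Huh7, whereas PDK3 made up 1.40% and 1.12% in Huh1 and 10.2% and 13.9% in Huh7. Without PDK1, the other kinases summed to 9.19 RPKM in Huh1 and 8.95 RPKM in Huh7 with control siRNA. The higher kinase sum of Huh7 under control siRNA was therefore carried by PDK1.

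**Figure D2:**
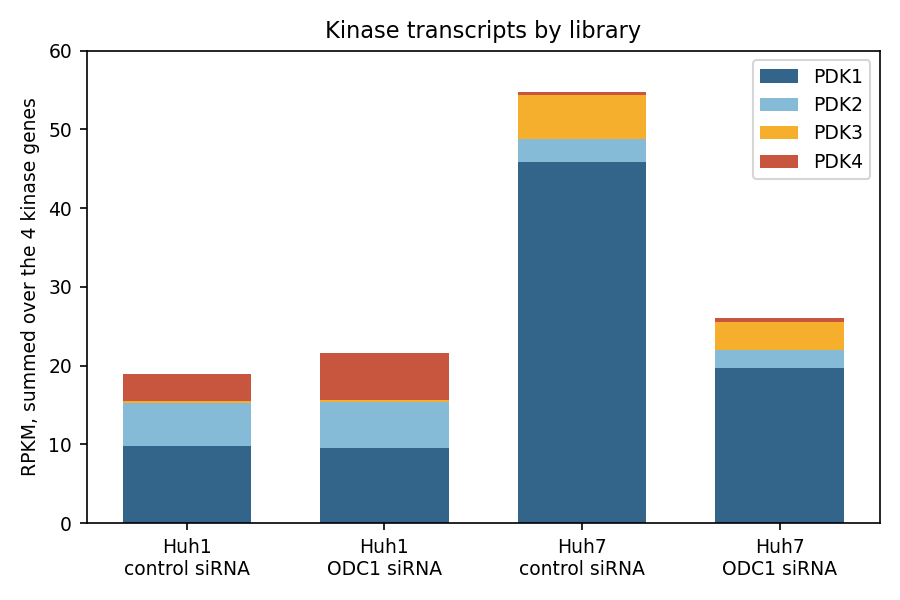
Stacked bars of the RPKM of the 4 kinase genes in each library, with the y axis starting at 0. The sum is 54.8 RPKM in Huh7 with control siRNA and between 19.0 and 26.0 RPKM in the other 3 libraries, and PDK3 takes the place of PDK4 in Huh7.

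The phosphatase genes also differed in their balance. PDP1, the calcium-responsive catalytic subunit, was at 2.48 and 1.98 RPKM in Huh1, against 4.64 and 4.25 in Huh7. PDP2, the calcium-independent catalytic subunit known from liver and fat (chromosome 16, 66878589 to 66895754, plus strand), was at 8.13, 7.14, 4.30 and 3.34 RPKM. PDP1 was higher in both Huh7 libraries and PDP2 in both Huh1 libraries, so that PDP2 made up 76.6% and 78.3% of their sum in Huh1 and 48.1% and 44.0% in Huh7. The sum itself varied little, from 7.58 to 10.6 RPKM. PDPR, the regulatory subunit that restrains PDP1, was at 7.84 and 8.42 RPKM in Huh1, against 17.6 and 16.8 in Huh7. The kinase sum per phosphatase sum was 1.79 and 2.36 in Huh1, 6.13 in Huh7 with control siRNA and 3.43 in Huh7 with ODC1 siRNA.

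The lines were compared next, in a limma fit of log2(RPKM + 1) on line and siRNA over the 12039 genes that reached 1 RPKM in some library. In this fit, 6 of the 10 members were higher and 3 lower in Huh7 at an adjusted p under 0.05. The same threshold called 73.9% of all genes tested, so the share of members called is near the background and is not a result about these genes. With a difference of at least 2-fold added, 4 members were called, 3 higher and 1 lower, against 26.5% of all genes. The median line difference of the members was 0.47 on the log2 scale and that of all genes tested was 0.13. PDK3 and PDK4 passed the filter through 1 line only, so a line difference was bound to appear for them. The fit has 1 residual degree of freedom, which limma moderates with the trend over all genes, and the p-values rest on the spread among these 4 libraries alone, with no replicate cultures.

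By size, PDK3 was 2.14 higher in Huh7 on the log2 scale (SE 0.17, limma adjusted p = 6.25e-06), PDK1 1.55 higher (SE 0.21, adjusted p = 0.000195) and PDHA1 1.33 higher (SE 0.073, adjusted p = 6.46e-07). PDHX was higher by 0.83 (adjusted p = 0.000113), PDP1 by 0.76 (adjusted p = 0.000767) and PDHB by 0.18 (adjusted p = 0.0416). PDK4 was lower in Huh7 at -1.97 (SE 0.18, adjusted p = 1.57e-05), as were PDK2 at -0.91 (adjusted p = 0.000382) and PDP2 at -0.85 (adjusted p = 0.000188). DLAT, at 0.09, did not pass (adjusted p = 0.382). Of the tested genes, 7.32% differed at least as much as PDK3 between the lines, 8.65% as PDK4, 13.5% as PDK1 and 17.2% as PDHA1. The PDHB call was lost under 5 of 8 other settings, with an adjusted p between 0.0394 and 0.229 over all 8, and the calls of the other 8 members were kept under each setting in which the gene was tested. PDK3 and PDK4 passed the filter through 1 line only, so their p-values and kept calls add no support for a line difference.

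Within each siRNA, where there is 1 library per line and no test, the same differences can be read once for each siRNA. With control siRNA, 3 members were at least 2-fold higher in Huh7 (PDK1, PDK3 and PDHA1) and 1 was at least 2-fold lower (PDK4), while 27.2% of 11896 genes passed 2-fold either way. With ODC1 siRNA, 3 were higher (PDK3, PDHA1 and PDHX) and 2 lower (PDK2 and PDK4), against 27.2% of 11843 genes. PDHX lay at the limit, at 1.00 on the log2 scale, and with quantile normalization or upper quartile scaling 2 members in place of 3 were higher. In these counts 2-fold was taken on log2(RPKM + 1), which understates the differences of low genes. As plain RPKM ratios with ODC1 siRNA, PDK1 (2.08) and PDP1 (2.15) were also more than 2-fold higher in Huh7. PDP2 was 2.14-fold higher in Huh1 on that measure. PDHA1 was 2.55-fold higher in Huh7 with control siRNA (95% interval 2.39 to 2.73) and 2.58-fold with ODC1 siRNA (95% interval 2.40 to 2.78). The PDK1 ratio was 4.68 with control siRNA (95% interval 4.19 to 5.23) and 2.08 with ODC1 siRNA (95% interval 1.81 to 2.39). PDK1 thus had a smaller line difference in the ODC1 siRNA libraries, and PDHA1 nearly the same one in both.

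**Figure D3:**
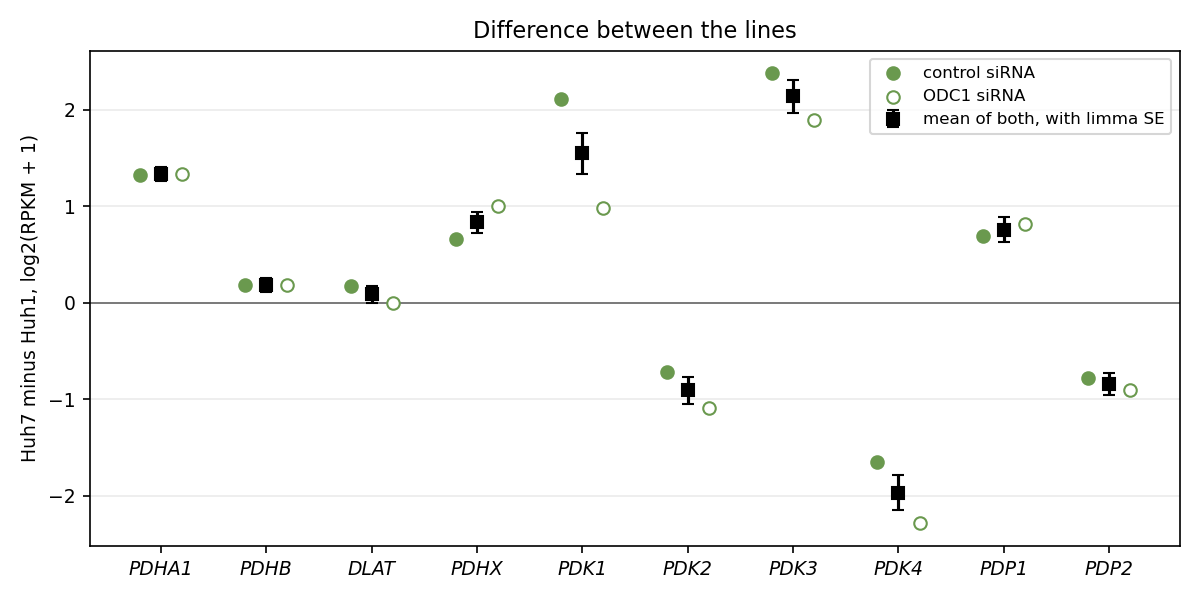
Difference between the lines for each gene, as Huh7 minus Huh1 on log2(RPKM + 1). Circles are the differences within control siRNA (filled) and ODC1 siRNA (open), and squares with bars are their mean with the limma standard error. The circles of PDK1 lie at 2.12 and 0.98, and those of PDHA1 at 1.32 and 1.34.

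ODC1 siRNA was then compared with control siRNA within Huh7. PDK1 was at 43.1% of its control level (45.8 and 19.8 RPKM, 95% interval 39.3% to 47.4%, about 1671 and 604 reads), a log2 difference of -1.17. Of the 9 members at 1 RPKM or more in either Huh7 library (PDK4 was below), it was the 1 past 2-fold, against 0.771% of 11416 genes, and 21 of those genes, PDK1 included, were at least as far down. PDK3 was at 64.8% of control (95% interval 47.8% to 87.0%), DLAT at 80.6% (74.9% to 86.7%) and PDP2 at 77.6% (65.9% to 91.5%). PDK2 was at 74.6% with an interval that includes 100% (53.1% to 104%), on 96 and 60 reads. PDHA1 was at 97.0% (92.0% to 102%), PDHB at 93.4% (85.5% to 102%), PDHX at 108% (96.8% to 121%), PDP1 at 91.6% (74.97% to 111%) and PDK4 at 106% (49.0% to 224%). The kinase sum stood at 71.8% of the PDHA1 level with control siRNA and at 35.2% with ODC1 siRNA.

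Within Huh1, none of the 9 members at 1 RPKM or more in either library (PDK3 was below) passed 2-fold, against 0.0825% of 10912 genes. PDK4 stood out, with 3.41 RPKM under control siRNA and 5.95 RPKM under ODC1 siRNA, which is 1.74-fold (95% interval 1.43 to 2.15, about 163 and 239 reads) and a log2 difference of 0.66. Of the 10912 genes, 58 were at least as far up, PDK4 included. PDK1 was at 97.0% of control (83.4% to 113%), a value with no difference beyond counting error, unlike that in Huh7. PDHX was at 84.4% (72.7% to 97.4%), PDP2 at 87.8% (78.7% to 97.9%) and DLAT at 91.9% (85.5% to 98.7%). PDHA1 was at 96.0% (88.4% to 104%), PDHB at 93.2% (85.3% to 102%), PDP1 at 79.7% (60.9% to 104%) and PDK2 at 106% (86.3% to 131%). PDK3, on about 7 and 5 reads, was at 90.6% (21.3% to 312%), and a change was not detectable at this depth. The kinase sum was 63.6% of the PDHA1 level with control siRNA and 75.2% with ODC1 siRNA.

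**Figure D4:**
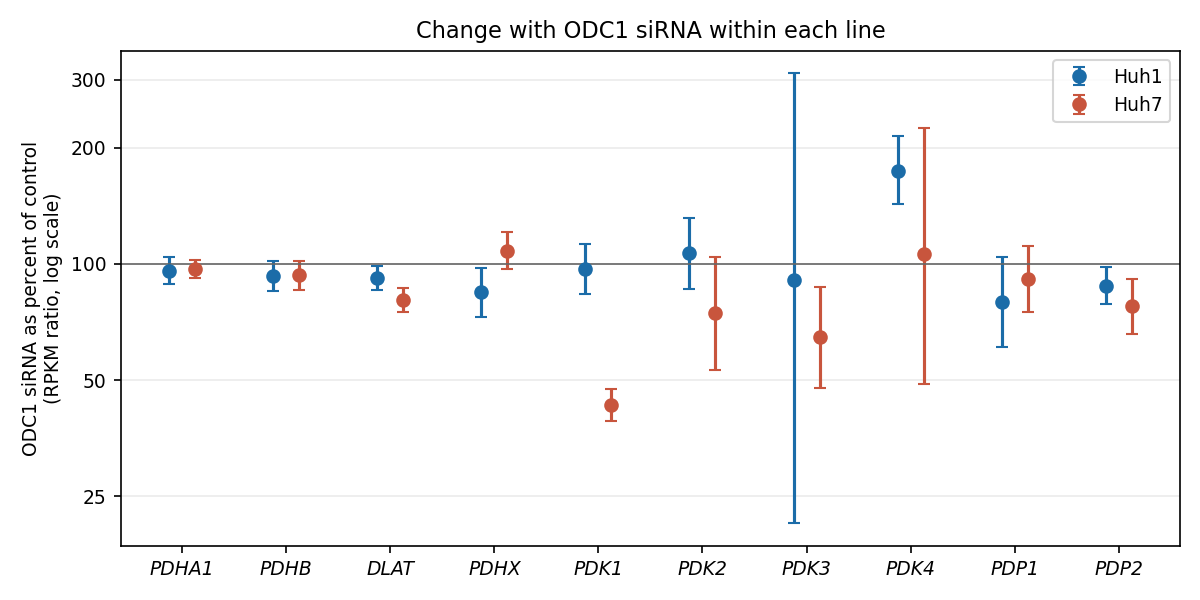
RPKM with ODC1 siRNA as a percent of that with control siRNA in the same line, on a log scale, for Huh1 and Huh7. Bars are 95% exact binomial intervals on recovered or approximate reads and cover counting error only. PDK1 in Huh7 (43.1%) lies lowest and PDK4 in Huh1 (174%) highest.

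Over both lines, with the line as a term, no member passed the limma threshold for ODC1 siRNA, against 2.12% of 12039 genes (181 higher and 74 lower, or 192 and 188 with upper quartile scaling). None of the 8 other settings with a test called a member either. An unadjusted p under 0.05 was reached by 2 of the 10 members and by 2286 of the 12039 genes, so the members' share is near that of all genes. They were PDK1 (log2 fold change -0.61, SE 0.21, limma adjusted p = 0.180, and between 0.128 and 1.0 under the other settings) and DLAT (-0.21, SE 0.085, adjusted p = 0.232). PDK4 had 0.34 (SE 0.18, adjusted p = 0.354), PDK3 -0.27 (adjusted p = 0.432) and PDP2 -0.23 (adjusted p = 0.331). The other 5 lay between -0.16 and -0.05. The members' median was -0.14 and that of all genes tested 0.01, and 9 of the 10 members were below 0. In each line 8 of the 10 members were below 0, as were 44.9% of the tested genes in Huh1 and 50.5% in Huh7. The mean over the lines hides unequal changes: the Huh7 change minus the Huh1 change was -1.13 for PDK1, -0.63 for PDK4, -0.48 for PDK3, -0.38 for PDK2 and 0.34 for PDHX, and between -0.18 and 0.12 for the other 5. That difference takes the only residual degree of freedom, so it could not be tested. ODC1 itself was at 24.2% of control in Huh1 and at 4.49% in Huh7 with ODC1 siRNA. The line and the depth of the knockdown therefore cannot be told apart in any change that differs between the lines.

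Genes around the complex were read from lists of related pathways. Among 15 tested genes that carry, make or use pyruvate, ODC1 siRNA raised 1 and lowered 2 over both lines in the limma test. The same test called 2.12% of all 12039 genes. The lactate dehydrogenase gene LDHA fell by 0.66 (547 to 417 RPKM in Huh1, 1396 to 735 in Huh7, adjusted p = 0.0265) and the malic enzyme gene ME1 rose by 0.42 (adjusted p = 0.0327). The monocarboxylate carrier gene SLC16A7, named after its values were seen, was also lower (adjusted p = 0.0440). Of 4 thiamine genes, which supply the E1 cofactor, 1 fell, the transporter gene SLC19A2 (-0.51, adjusted p = 0.0411). None of 14 lipoylation and iron-sulfur genes, none of 6 genes of the sister dehydrogenases and neither DLD nor PDPR passed. With 2.12% of all genes called, lists this short can hold no call by their size alone. The calls of LDHA, ME1, SLC16A7 and SLC19A2 were each kept under 2 of 8 other settings, upper quartile scaling and the trend on counting variance.

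Between the lines, LDHB of the pyruvate list differed by more than any member did. LDHB, the lactate dehydrogenase subunit that favours pyruvate formation, was at 403 and 385 RPKM in Huh1, against 2.68 and 5.72 in Huh7 (log2 difference -6.31, limma adjusted p = 1.25e-08). SLC16A3, the lactate exporter MCT4, was at 0.0366 and 0.392 RPKM in Huh1, against 67.6 and 28.8 in Huh7. It passed the 1 RPKM filter through Huh7 alone, so a line difference was bound to appear. The same limit holds for GPT and PKLR of that list, which passed through Huh1 alone. In that list 4 of 15 genes were higher and 10 lower in Huh7, with a median of -0.94. Of all 12039 genes, 5183 were higher and 3708 lower in the same fit (73.9% called), so a high number of calls in a list is not particular to it. Among 21 citric acid cycle genes 4 were higher and 12 lower, with a median of -0.36, and IDH1, the cytosolic isocitrate dehydrogenase, had the largest difference of the list (-2.37). Of 6 sister dehydrogenase genes 4 were higher and none lower, of 14 lipoylation genes 5 were higher and 3 lower, and of 4 thiamine genes none was higher and 2 were lower. Among the 4 sister genes called, PPM1K was at 0.344 and 0.267 RPKM in Huh1, against 1.31 and 1.30 in Huh7. It passed the filter through Huh7 alone, so its call was bound to appear. The medians of the pyruvate and citric acid cycle lists lay on the other side of 0 from the median of all genes (0.13).

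PDK1 was set beside 22 other HIF targets, a list that also holds glycolytic genes and was chosen with earlier results of these data known. In Huh7, 20 of the 22 had a negative change with ODC1 siRNA, with a median of -0.52 and 4 at least 2-fold lower, while 50.3% of all 12039 genes were negative, their median was 0.00 and 49 were at least 2-fold lower. In Huh1, 14 of the 22 were negative, the median was -0.03 and none was 2-fold lower. Of these genes, 2 lay lower than PDK1 in Huh7, the aldolase gene ALDOC (51.9 to 20.3 RPKM, -1.31) and PFKFB4, a regulator of glycolytic flux (22.2 to 9.06 RPKM, -1.21). The mitophagy receptor gene BNIP3 was at 368 and 173 RPKM in Huh7 (-1.09) and at 155 and 145 RPKM in Huh1. ADM (25.3 to 36.9 RPKM, 0.53) and ERO1L (31.5 to 32.95 RPKM, 0.06), named after their values were seen, did not fall in Huh7. None of the 22 passed the limma threshold over both lines, against 2.12% of all genes. The list is not a full one, and LDHA and SLC16A3, counted with the pyruvate genes, were left out of it. Their changes were -0.92 and -1.21 in Huh7, and -0.39 and 0.43 in Huh1. Over both lines LDHA passed (limma adjusted p = 0.0265) and SLC16A3 did not (adjusted p = 0.528). Whether HIF had a part in these changes was not tested. HIF1A, the oxygen-regulated subunit of HIF-1 and 1 of 3 HIF subunit genes tested, was at 31.3 and 25.2 RPKM in Huh1, against 147 and 110 in Huh7. It fell by 0.35 with ODC1 siRNA (adjusted p = 0.0494, a call kept under 2 of 8 other settings) and was 2.14 higher in Huh7 on the log2 scale (adjusted p = 3.57e-08). Across the list, 13 of 22 genes were higher and 4 lower in Huh7, with a median of 0.64, while 73.9% of all genes were called. Among the 13, SLC2A3 was at 0.174 and 0.0898 RPKM in Huh1, against 5.94 and 5.175 in Huh7. It passed the 1 RPKM filter through Huh7 alone, so its line difference was bound to appear.

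**Figure D5:**
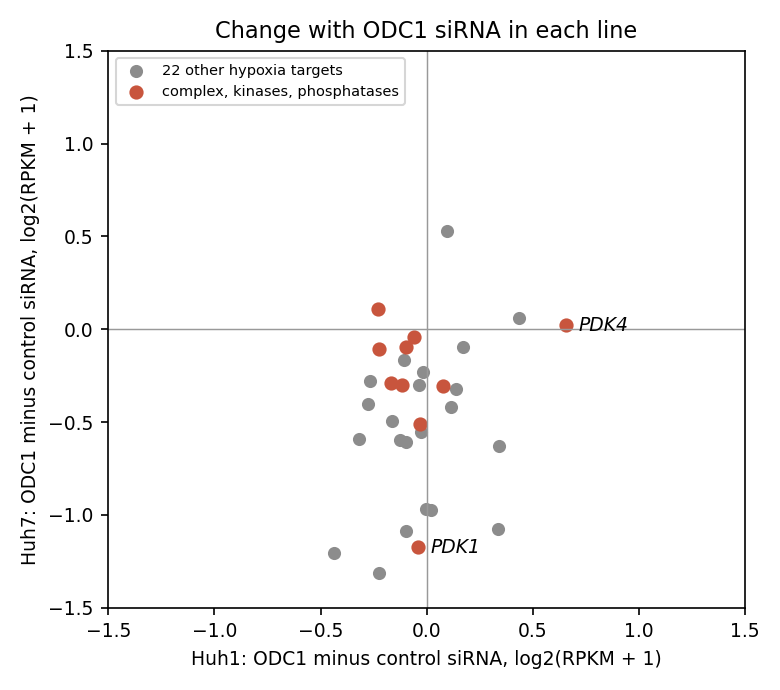
Change with ODC1 siRNA in Huh1 (x axis) against that in Huh7 (y axis) on log2(RPKM + 1), for the 10 members and 22 other HIF targets, with 1 point per gene. PDK1 lies at -0.04 and -1.17 among the lowest HIF targets, and PDK4 lies at 0.66 and 0.03.

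PDK4 was set beside 11 tested genes of fasting and PPAR action. With ODC1 siRNA, 4 of the 11 were negative in Huh1, with a median of 0.12, and 10 of the 11 in Huh7, with a median of -0.22. Of all genes, 45% were negative in Huh1 and 50.3% in Huh7. None passed over both lines, against 2.12% of all genes. The fatty acid binding protein gene FABP1 was at 221 RPKM with control and 286 with ODC1 siRNA in Huh1, against 42.7 and 27.6 in Huh7. Its value with ODC1 siRNA was thus the higher one in Huh1 and the lower one in Huh7. PDK4 had the first of these differences. In Huh7 PDK4 was at 0.399 and 0.423 RPKM, on about 17 and 15 reads. That is 106% of control, with a counting interval of 49.0% to 224%. Whether PDK4 had the second difference could therefore not be decided at this depth. Between the lines, 7 of the 11 were lower and 3 higher in Huh7, with a median of -1.55, again beside 73.9% of all genes called. PPARA, the fasting-responsive nuclear receptor, was at 9.36 and 11.3 RPKM in Huh1, against 2.96 and 2.30 in Huh7 (-1.64, limma adjusted p = 1.17e-05), and the insulin-regulated factor gene FOXO1 was higher in Huh7 (1.04, adjusted p = 0.000107). PPARA and FOXO1 belong to a list of 8 factors known to act on PDK4, of which none passed for ODC1 siRNA, 2 were higher and 4 lower in Huh7. Of the 2 higher, PPARGC1A was at 0.0485 and 0.0846 RPKM in Huh1, against 0.714 and 1.30 in Huh7. It passed the filter through Huh7 alone, so its line difference was bound to appear.

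Over the 4 libraries, the genes with patterns nearest to PDK1 were REEP6, CXADR, FGF11, C10orf10 and ETNK2, among genes with at least 5 RPKM in some library. Likeness was the Euclidean distance between centred log2(RPKM + 1) values, which ran from 0.161 for REEP6 to 0.337 for ETNK2. REEP6 was at 7.51 and 7.92 RPKM in Huh1, against 36.7 and 14.1 in Huh7. The genes nearest to PDK4 included TMEM139, KRT80, ABHD14B and PCDHGB4, at distances from 0.0519 to 0.25. TMEM139 was at 3.12 and 5.37 RPKM in Huh1, against 0.343 and 0.358 in Huh7. With 4 libraries many genes can lie close by, and these are descriptions.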

How the data were processed

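The authors deposited 1 RPKM value per RefSeq transcript (18398 rows) and library, in files with no header. CASAVA 1.8.2, TopHat2 2.0.9 and hg19 appear in the submitters' processing notes. The counting program, annotation release and strand setting were not given in the sources used here. RPKM is scaled to depth and length, so no count model was used.

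Relative depth came from the commonest ratio of values under 0.3 RPKM, and its absolute scale from what 1 read adds on GENCODE 29 lengths. Whole reads (tolerance 0.01) were recovered for 2 members, PDK2 and PDHB, and those of the other 8 are approximate. Intervals of ratios (95%, exact Clopper-Pearson) cover counting error alone.

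The tests used log2(RPKM + 1), so fold changes of low genes are understated. limma 3.58.1 (R 4.3.3) modelled line plus siRNA, with a trend on intensity, in the 12039 genes that reached 1 RPKM in some library, Benjamini-Hochberg threshold 0.05, and tested on simulated data. The line term pairs the libraries of a line. Within a line or siRNA, genes reaching 1 RPKM in 1 of the pair were counted past 2-fold on the same log2(RPKM + 1) scale, with no test.

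The members and lists were chosen with earlier results of these data known. Named genes were the members, ODC1, DLD, PDPR, up to 6 genes per list by size of change or line difference, and the 5 nearest to PDK1 and PDK4. Some genes that this rule names are not reported here. Alternatives were quantile normalization, upper quartile scaling, no filter, a filter at 5 RPKM, a pseudocount of 0.1, no trend, a trend on counting variance, 1 model term fewer, a 1.5-fold rule and each library left out. GRCh38 coordinates are from GENCODE 29. Python used numpy, pandas and scipy.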

Additional observations from a re-analysis of the deposited data

Results flagged for a closer look

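The changes of 2 members with ODC1 siRNA had opposite signs in the lines, and neither difference was tested. PDK2 was at 0.08 in Huh1 and -0.30 in Huh7 on the log2 scale, a difference of -0.38. PDHX was at -0.23 in Huh1 and 0.11 in Huh7, a difference of 0.34. The 95% counting interval of the PDK2 ratio includes 1 in both lines, and that of PDHX includes it in Huh7 (0.968 to 1.21) but not in Huh1 (0.727 to 0.974).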

How the results depend on the processing

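No member was called for ODC1 siRNA under any of the 8 other settings with a test, among them the fit with no replicate block (no line term), where limma called 0 of all genes and 22 had an unadjusted p under 0.05. All genes called numbered 255, and 52 with quantile normalization, 380 with upper quartile scaling, 54 with a pseudocount of 0.1, 108 with a filter at 5 RPKM, 336 with a trend on counting variance, and 0 with no filter or without trend (2040 and 1830 with an unadjusted p under 0.05). Between the lines, 9 members were called. There were 8 where PDHB was lost, and 8 with a filter at 5 RPKM, where PDP1 was not tested and PDHB was kept. PDHB was at 0.10 with quantile normalization and 0.11 with upper quartile scaling, and at 0.18 without trend, with a trend on counting variance and with no siRNA term. DLAT, not called, turned to -0.006 with quantile normalization (adjusted p = 0.953), which moved the median of all genes from 0.13 to 0.02. A 1.5-fold rule gave 1 member in Huh1 (PDK4) beside 1.37% of all genes, and 8 between the lines with either siRNA beside 47.7%. A pseudocount of 0.1 also gave 8 with ODC1 siRNA, beside 32.9%, since it shrinks the differences of low genes less. The members added were PDK1, PDP1 and PDP2, at 0.98, 0.82 and -0.91 on log2(RPKM + 1). The cause of the changes in the limma calls was not tested.

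Leaving out a library left no residual degree of freedom, so it gave values with no test. Each siRNA value is then the change within the line left whole, and each line value the difference within the siRNA left whole. They repeat values given above and are no separate check. The PDK1 siRNA effect ranged from -1.17 (without a Huh1 library) to -0.04 (without a Huh7 library), PDK4 from 0.03 to 0.66, PDK2 from -0.30 to 0.08 and PDHX from -0.23 to 0.11. The PDK1 line difference ranged from 0.98 to 2.12 and that of DLAT from -0.01 to 0.18. Depth limits PDK3 in Huh1 and PDK4 in Huh7, at no more than about 17 reads.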
